A study of Mus musculus with 24 samples.

Results

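The interleukin-6 (IL-6) family was followed in RNA of CD45+ cells, the leukocyte fraction, of mouse breast tumors. Its 9 genes were taken by symbol from the 16996 genes of the expression data, and all 9 had a row and a value in every sample. They are the ligands Il6, Il11, Lif and Osm, the receptor chains Il6ra, Il11ra1 and Il6st, the transcription factor Stat3 and the feedback inhibitor Socs3. CD45+ cells were enriched with magnetic beads from tumors of EMT6-hHER2, a mouse mammary carcinoma line that expresses human HER2 and was grown from 1 sorted clone, placed in the mammary fat pad of female Balb/c mice. The labels give wild-type genotype and an age of 10-12 weeks for all mice, and tumors of 80 mm3 were treated once, by intravenous injection, and taken on day 10. The 4 groups held 6 mice each, 24 in all with 1 library per mouse. Mice were left untreated, or received trastuzumab (20 mg/kg, an antibody to HER2), T-DM1 (15 mg/kg, trastuzumab joined to the microtubule inhibitor DM1) or T-PNU (1 mg/kg, trastuzumab joined through a non-cleavable linker to a derivative of the anthracycline PNU-159682). The 3 doses differ, so agent and dose cannot be told apart. By the study's account T-PNU tumors had shrunk by day 10, whereas trastuzumab and T-DM1 did not prevent growth. Agent and tumor response thus cannot be told apart either. The study also divides its T-PNU samples into high-responding and low-responding ones, a division not used here. Human HER2 on the tumor cells was the target of all 3 agents, and every group carried it.

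IL-6 family cytokines share a signaling chain, gp130, which is the product of Il6st. Each ligand first meets its own receptor chain, as IL-6 does IL-6Rα (Il6ra) and IL-11 does IL-11Rα (Il11ra1), while leukemia inhibitory factor (Lif) and oncostatin M (Osm) act through gp130 paired with LIFR or OSMR. Engaged gp130 activates JAK kinases, which phosphorylate STAT3, and STAT3 induces SOCS3, which in turn blocks gp130. In tumors, macrophages and neutrophils are known sources of oncostatin M, and fibroblasts and carcinoma cells of IL-6, IL-11 and LIF.

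The 4 promoters below are shown because Il11 and Lif moved together in these samples, Il6 did not move with them, and Socs3 is the classical STAT3 target. Sequences upstream of the transcription start were taken from RefSeq (GRCm38.p6) and read 5′ to 3′ on the strand of the gene, without bases that GENCODE M21 annotates as exonic. Capitals mark matches to any of 3 motifs, searched on both strands of the 250 bases before each start.
Il11, chr7:4778142-4778391, minus strand, in an intron of longer Il11 transcripts: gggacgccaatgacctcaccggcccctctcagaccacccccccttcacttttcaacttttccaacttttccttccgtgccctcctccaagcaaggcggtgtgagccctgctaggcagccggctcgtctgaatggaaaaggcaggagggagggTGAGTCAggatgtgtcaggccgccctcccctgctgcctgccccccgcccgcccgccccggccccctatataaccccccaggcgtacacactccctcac
Lif, chr11:4257318-4257556, plus strand: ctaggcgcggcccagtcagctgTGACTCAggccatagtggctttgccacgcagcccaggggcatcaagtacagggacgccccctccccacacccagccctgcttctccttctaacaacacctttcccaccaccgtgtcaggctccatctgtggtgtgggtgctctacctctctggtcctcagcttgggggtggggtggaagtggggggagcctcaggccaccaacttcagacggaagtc
Il6, chr5:30012864-30013113, plus strand: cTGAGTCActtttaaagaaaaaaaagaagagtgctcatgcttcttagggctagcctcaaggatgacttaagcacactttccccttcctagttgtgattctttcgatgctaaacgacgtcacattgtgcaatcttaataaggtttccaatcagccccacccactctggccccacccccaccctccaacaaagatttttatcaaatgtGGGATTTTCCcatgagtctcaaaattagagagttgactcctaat
Socs3, chr11:117969452-117969616, minus strand: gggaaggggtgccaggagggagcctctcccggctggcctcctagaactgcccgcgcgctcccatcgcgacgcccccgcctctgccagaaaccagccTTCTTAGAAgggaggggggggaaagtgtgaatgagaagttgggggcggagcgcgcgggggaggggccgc
The motifs were TTCNNNGAA for STAT factors, TGANTCA for AP-1 and, for NF-κB, GGGA followed by any base and TTTCC, and no matches overlapped. A match is a run of letters, not a measured binding site. The STAT motif was found in Socs3, 154 bases before its start, and in no other member, against 7.02% of all 32851 promoters. The Socs3 window lies inside the Socs3 gene as GENCODE M21 annotates it (chr11:117966079-117970047), downstream of its most upstream annotated start. The AP-1 motif was found once each in Il11 (98 bases before the start), Lif (228 bases) and Il6 (249 bases), against 6.75% of promoters. The NF-κB motif was found in Il6 alone, 44 bases before its start, against 0.356% of promoters. The other windows, a second and more distant start of Il11 and those of Il6ra, Il11ra1, Il6st and Stat3, held none of the 3 motifs. Promoters were matched for 8 of the 9 members, and Osm was not among them. Il11 and Lif lie on different chromosomes, whereas Osm (chr11:4236420-4241026, plus strand) ends 16530 bases before Lif (chr11:4257557-4272514, plus strand) begins.

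The deposited values are log2 expression normalized for library size, and a difference of 1 is a doubling. The values look shrunken gene by gene, so a log2 difference can be smaller than one from counts, and the depth of each library is unknown. Sample medians over all genes lay between 8.73 and 8.87. The published heatmaps leave out B1 and C1 of the untreated group and E2 and B3 of the trastuzumab group, so the comparisons of T-PNU with the other groups are also given over the remaining 20 samples. Mouse numbers of untreated animals run in another series than those of treated animals, so a difference between the series and one between untreated and treated mice cannot be told apart. Ptprc, which encodes CD45, lay at percentile 99.1 of all genes by mean level, but non-leukocyte RNA was present too, with the keratin gene Krt8 at percentile 95.6 and the collagen gene Col1a1 at percentile 96.1. In such bulk samples, fewer cells of a type and less RNA per cell cannot be told apart.

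Per kilobase of annotated exons, the mean log2 level over 24 samples was highest for Socs3 (12.5 ± 0.19, SD), followed by Osm (11.2 ± 0.29), Stat3 (10.7 ± 0.39), Lif (10.3 ± 0.81), Il11 (9.61 ± 0.85), Il6st (8.94 ± 0.25), Il6 (8.84 ± 0.45), Il6ra (8.36 ± 0.23) and Il11ra1 (5.80 ± 0.12). Among neighbors in this order, Socs3 lay above Osm, Lif above Il11, and Il6ra above Il11ra1 in 24 of 24 samples each. The other neighbors changed places between samples, and Il6st was above Il6 in 12 of 24. Reads of Il11ra1 are uncertain, since mice carry near-identical copies of this gene.

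Over the 4 groups, 3 of the 9 members differed (limma, moderated F test, adjusted over 16996 genes), where 18.8% of all genes did. These were the ligands Il11 (adjusted p = 0.0192) and Lif (adjusted p = 0.0414) and the receptor chain Il6ra (adjusted p = 0.00986). Group membership held 49.3%, 40.7% and 60.1% of their variance in that order, against 25.8% for the median gene. Osm, Il6st and Il11ra1 varied least with group, at 5.71%, 4.38% and 8.84%. Lif was not stable in this test, since it lost its call without any 1 of 14 samples, at most to an adjusted p of 0.101 without T-PNU sample C2. Over the 20 samples, Stat3 joined the 3 genes (adjusted p = 0.0181).

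**Figure D1:**
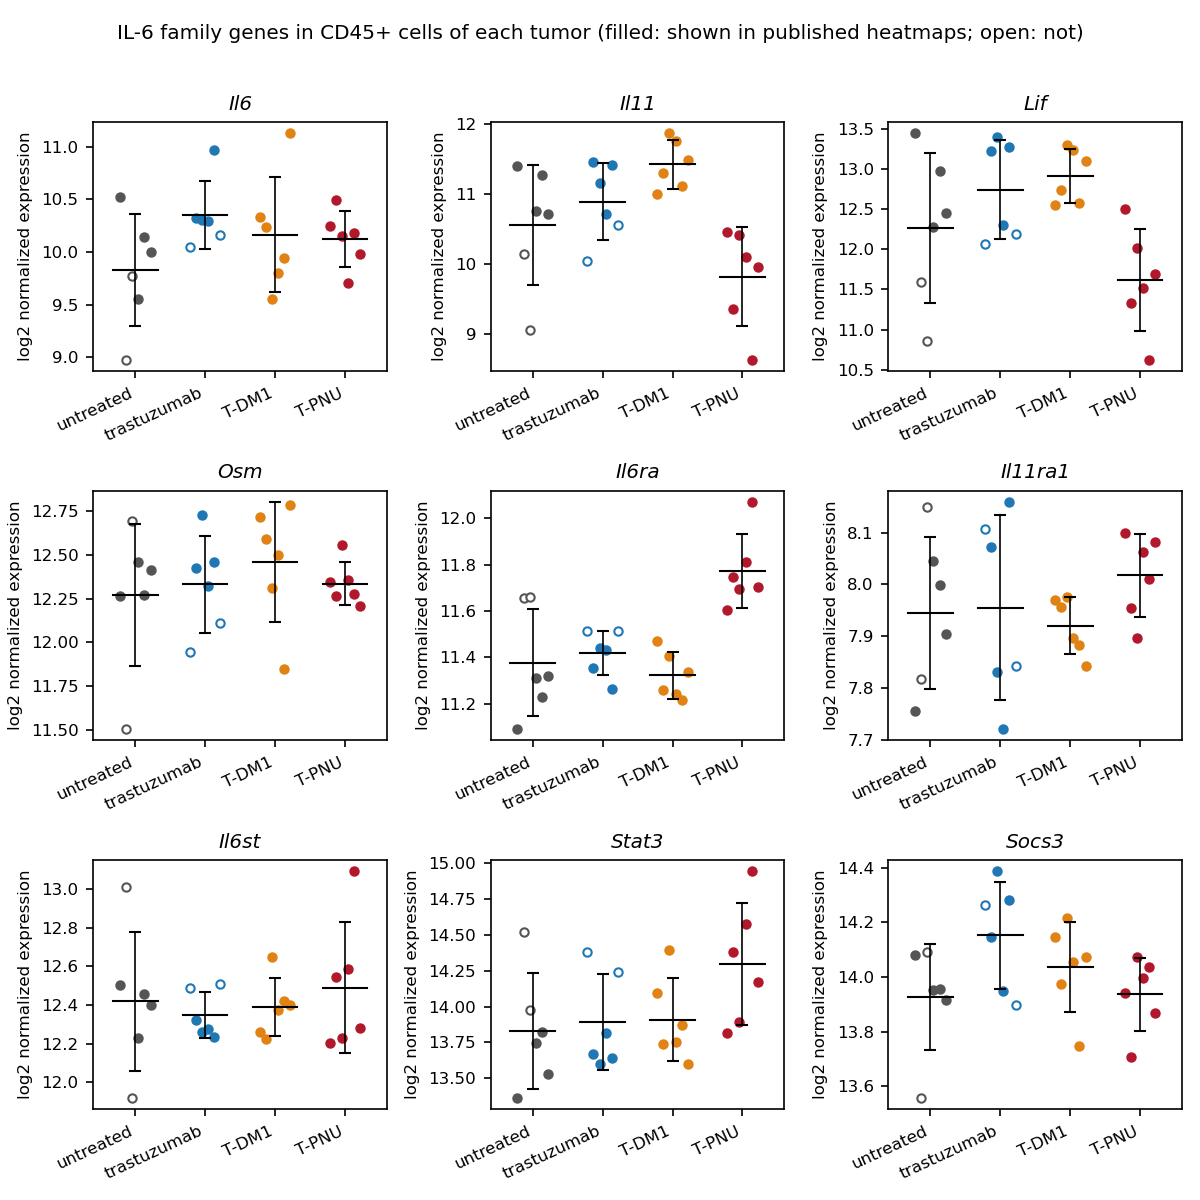
Log2 normalized expression (y axis) of the 9 members in each sample, by group (x axis), with 1 point per mouse, the group mean as a horizontal line and the SD as bars. Open points are the 4 samples not in the published heatmaps. All 6 T-PNU points lie below all 6 T-DM1 points for Il11 and Lif and above them for Il6ra.

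Of the ligands, Il11 and Lif were lowest in T-PNU tumors. Il11, a cytokine of stromal and epithelial cells, measured 10.46, 9.35, 10.41, 10.09, 8.63 and 9.96 in T-PNU samples G1, H1, A2, B2, C2 and D2. In T-DM1 samples C3 to H3 it measured 11.00, 11.30, 11.87, 11.76, 11.11 and 11.49. The lowest T-DM1 value was thus above the highest T-PNU value. Trastuzumab samples E2 to B3 measured 10.04, 11.46, 11.16, 10.71, 11.42 and 10.55, and untreated samples A1 to F1 measured 11.39, 10.13, 9.05, 10.76, 11.27 and 10.72. Both of these groups overlapped T-PNU, and their low values were those of samples B1, C1 and E2, which the heatmaps leave out. Il11 was lower in T-PNU than in T-DM1 tumors by 1.61 on the log2 scale (difference -1.61, SE 0.35, 95% CI -2.33 to -0.88, adjusted p = 0.00320), which is 3.04-fold. The study displays Il11 and Stat3 and names Il6 and Il12rb2 from these same samples, so the values of these genes are not independent evidence.

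Lif, which maintains stem cells and dampens inflammation, followed the same order. It measured 12.50, 11.33, 12.02, 11.52, 10.62 and 11.69 in T-PNU samples G1 to D2. T-DM1 samples C3 to H3 measured 12.55, 12.73, 13.30, 13.23, 12.58 and 13.10. The groups did not overlap, although G1 and C3 lay close to each other. Trastuzumab samples E2 to B3 measured 12.07, 13.22, 13.39, 12.30, 13.27 and 12.18, and untreated samples A1 to F1 measured 13.44, 11.59, 10.86, 12.28, 12.98 and 12.44. Both ranges overlapped that of T-PNU. Lif was lower in T-PNU than in T-DM1 tumors (difference -1.30, SE 0.36, 95% CI -2.04 to -0.56, adjusted p = 0.0109), which is 2.46-fold.

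Il6 and Osm, by contrast, were not called in any comparison. Il6, the inflammatory and acute-phase cytokine, had group means of 9.83 ± 0.53 in untreated, 10.35 ± 0.32 in trastuzumab, 10.17 ± 0.55 in T-DM1 and 10.13 ± 0.27 in T-PNU samples (SD, n = 6 each). Its difference between T-PNU and T-DM1 was -0.041 (95% CI -0.53 to 0.45). Osm, a cytokine of myeloid cells, had means of 12.27 ± 0.40, 12.33 ± 0.28, 12.46 ± 0.34 and 12.33 ± 0.12 in the same order. The T-PNU minus T-DM1 interval for Osm ran from -0.47 to 0.22. Differences between the ligands were not tested. The study describes IL6 as downregulated in T-PNU samples, with reference to its heatmaps. Against untreated tumors, Il6 in T-PNU differed here by 0.30 over 24 samples (limma, adjusted p = 0.418) and by 0.070 over the 20 (adjusted p = 0.841). Against trastuzumab it differed by -0.22 over 24 samples (limma, adjusted p = 0.577) and by -0.35 over the 20 (adjusted p = 0.282).

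Of the receptor chains, Il6ra stood highest in T-PNU tumors. Il6ra, which leukocytes and hepatocytes carry and which can be shed from the cell surface, measured 11.60, 11.75, 11.70, 11.81, 12.07 and 11.70 in T-PNU samples G1 to D2. The T-DM1 samples C3 to H3 measured 11.47, 11.26, 11.41, 11.24, 11.22 and 11.34, and the trastuzumab samples E2 to B3 measured 11.51, 11.36, 11.44, 11.43, 11.27 and 11.51. Every T-PNU value was above every value of both groups. Untreated samples A1 to F1 measured 11.09, 11.65, 11.66, 11.31, 11.23 and 11.32, where only B1 and C1 reached the T-PNU range. Il6ra was higher in T-PNU than in T-DM1 tumors by 0.45 (SE 0.091, 95% CI 0.26 to 0.64, adjusted p = 0.00226), or 1.37-fold, a smaller change than those of Il11 and Lif. An antisense gene, Gm42809, overlaps 242 exonic bases of Il6ra, and reads were counted by strand.

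Il11ra1 and the shared chain Il6st were not called. Il11ra1 group means lay between 7.92 and 8.02, and its T-PNU minus T-DM1 difference was 0.097 (95% CI -0.073 to 0.27). Il6st means lay between 12.35 and 12.49. The T-PNU minus T-DM1 difference of Il6st was 0.10 (95% CI -0.20 to 0.40), and its values ranged widely, from 11.92 in untreated sample C1 to 13.09 in T-PNU sample C2. The ligand-binding chain for IL-6 was thus called, while the chains for IL-11 and for the whole family were not; the differences between these genes were not tested.

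Downstream, neither Stat3 nor Socs3 was called over 24 samples. Stat3 measured 13.81, 14.38, 13.89, 14.58, 14.94 and 14.17 in T-PNU samples G1 to D2. Its means were 13.83 ± 0.40 in untreated, 13.89 ± 0.34 in trastuzumab, 13.91 ± 0.29 in T-DM1 and 14.30 ± 0.43 in T-PNU samples (SD, n = 6 each). All group ranges overlapped, and B1 of the untreated group (14.52), with E2 (14.38) and B3 (14.24) of the trastuzumab group, were among the high values. The T-PNU minus T-DM1 difference of Stat3 was 0.39 (95% CI -0.028 to 0.81, adjusted p = 0.142). Socs3 means were 13.93 ± 0.19, 14.15 ± 0.20, 14.04 ± 0.16 and 13.94 ± 0.13 without treatment and after trastuzumab, T-DM1 and T-PNU, in that order. The T-PNU minus T-DM1 difference of Socs3 was -0.099 (95% CI -0.31 to 0.11). Exons of Stat3 and Stat5a overlap by 72 bases on opposite strands, and those of Il11ra1 and Ccl27a by 8.

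T-PNU and T-DM1 therefore differed in 3 of 9 members, 1 higher and 2 lower, where 29.8% of all genes were called, so the share among the members is near the background. The 3 genes were also the members whose values did not overlap between these groups, a property of 13.2% of all genes. The 3 calls held without any 1 sample and over the 20 samples, where 39.9% of all genes were called. The median difference of the members was -0.041, against 0.030 over all genes.

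Against untreated tumors, 0 of the 9 members were called over 24 samples (limma, adjusted p), where 0.188% of all genes were. An unadjusted limma p under 0.05 was found for 4218 of all 16996 genes and for 3 members. These were Il6ra (0.39, SE 0.091, adjusted p = 0.0519), Il11 (-0.74, SE 0.35, adjusted p = 0.192) and Stat3 (0.47, SE 0.20, adjusted p = 0.159). Over the 20 samples, 4 members were called where 31.1% of all genes were. Il11 was lower by 1.22 on the log2 scale (difference -1.22, adjusted p = 0.00712) and Lif was lower as well (-1.17, adjusted p = 0.0103). Il6ra was higher (0.53, adjusted p = 0.000988), as was Stat3 (0.68, adjusted p = 0.0125). The 2 untreated samples left out, B1 and C1, had Il11, Lif and Il6ra values within the T-PNU ranges. Without C1 alone, Il11 (-1.04) and Il6ra (0.45) were called over the remaining samples. Over the 20 samples, 4 of 9 fibroblast markers were lower in T-PNU than in untreated tumors (median -0.68), and 1, Thy1 (1.41), was higher. Higher as well were 6 of 6 T cell (median 1.60), 4 of 4 NK and 4 of 5 endothelial markers. So were 2 of 3 general leukocyte, 3 of 6 neutrophil, 3 of 6 dendritic cell and 1 of 8 macrophage markers. Of 6 epithelial markers, 4 were higher and 1 lower (median 0.87). The part of these cells in the calls was not tested.

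Against trastuzumab, the antibody without a payload, 0 of 9 members were called over 24 samples (limma, adjusted p), where 0.00588% of all genes were. An unadjusted limma p under 0.05 was found for 3308 of all 16996 genes and for 4 members. Il11 differed by -1.07 (SE 0.35, adjusted p = 0.166), Lif by -1.12 (SE 0.36, adjusted p = 0.165), Il6ra by 0.35 (SE 0.091, adjusted p = 0.125) and Socs3 by -0.22 (SE 0.10, adjusted p = 0.246). Over the 20 samples, Il11 (-1.37, adjusted p = 0.00708), Lif (-1.43, adjusted p = 0.00708), Il6ra (0.40, adjusted p = 0.00639) and Stat3 (0.61, adjusted p = 0.0232) were called, where 28% of all genes were. Trastuzumab samples E2 and B3 had the lowest Lif and Il11 and the highest Il6ra and Stat3 of their group. Over the 20 samples, 5 of 9 fibroblast markers were lower in T-PNU than in trastuzumab tumors (median -0.82), and 1, Thy1 (0.80), was higher. Higher as well were 3 of 6 T cell (median 1.12), 4 of 5 endothelial (median 0.69), 2 of 3 general leukocyte and 2 of 5 B cell markers. So were 1 of 4 NK, 1 of 6 dendritic cell and 1 of 8 macrophage markers. Of 6 epithelial markers, 4 were higher and 1 lower (median 0.76), and the part of these cells in the calls was likewise not tested.

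**Figure D2:**
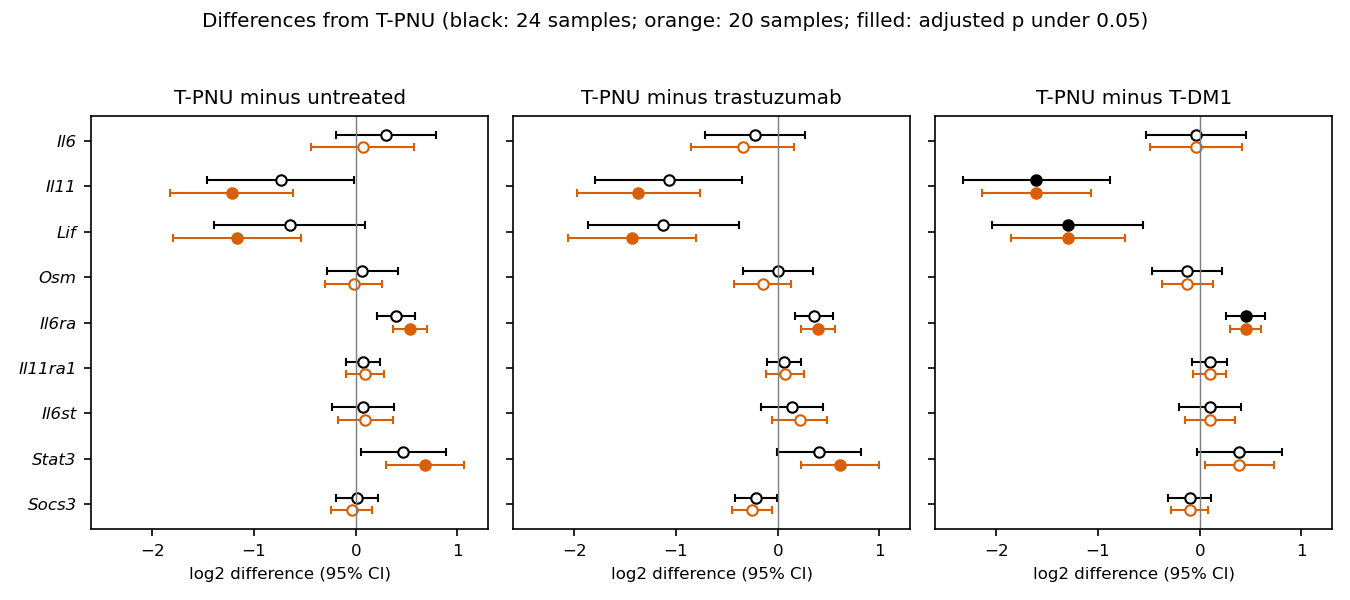
Log2 differences (x axis) of the 9 members (y axis) between T-PNU and each other group, with 95% CIs from limma, over 24 samples in black and over 20 in orange; filled points have an adjusted p under 0.05. Il11 and Lif lie left of 0 and Il6ra right of 0 in all 3 comparisons, and all 3 are filled in black only against T-DM1.

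The comparisons without T-PNU gave no call among the members. Between T-DM1 and untreated tumors 0 of 9 were called (limma, adjusted p), with 6.27% of all genes called. An unadjusted limma p under 0.05 was found for 3973 of all 16996 genes and for 1 member. That member was Il11, at 0.87 (SE 0.35, adjusted p = 0.133), and over the 20 samples its difference was 0.39. Between trastuzumab and untreated tumors 0 of 9 were called by limma, with 0.259% of all genes called. There 1491 of all genes had an unadjusted limma p under 0.05. So did 2 members, Il6 (0.52, limma, adjusted p = 0.535) and Socs3 (0.23, adjusted p = 0.522). Between T-DM1 and trastuzumab tumors 0 of 9 were called by limma, with 0.647% of all genes called. There 2604 of all genes but 0 members had an unadjusted limma p under 0.05. All comparisons with 1 group share its samples, so that T-PNU samples enter each of the 3 differences given for T-PNU.

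Of the 36 pairs of members over the 24 samples, 10 had a correlation that passed (permutation test of Pearson's r, adjusted over 36 pairs), 5 with a positive and 5 with a negative r, and the closest was that of Il11 and Lif. Its r was 0.960 and rho 0.930 (permutation p = 1e-05 for both, the smallest that 100000 resamples give, adjusted p = 9.0e-05 and 0.00018), and r was 0.933 without C1 and C2. With group means removed r was 0.950, so the relation also held within groups. Among the 18 treated samples alone r was 0.958, and among the 6 untreated ones 0.975. Spearman's rho passed for 9 of the 10 pairs as well, with adjusted permutation p from 0.00018 to 0.0497, and the exception was Il6 with Osm (rho 0.301, adjusted permutation p = 0.342).

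Il6ra ran against both ligands. Its r was -0.853 with Il11 (rho -0.808) and -0.846 with Lif (rho -0.792), each with a permutation p of 1e-05 for r, adjusted to 9.0e-05. Without C1 and C2 the values were -0.807 and -0.804, and with group means removed -0.807 and -0.829. Among the 18 treated samples they were -0.900 and -0.878, and among the 6 untreated ones -0.912 and -0.961. Within the other groups of 6, Il11 and Il6ra had an r of -0.870 in T-PNU and -0.845 in trastuzumab samples but -0.061 in T-DM1 samples, where Lif and Il6ra had an r of 0.012 and Il11 and Lif one of 0.980. Stat3 ran with Il6ra (r = 0.801, rho 0.706, permutation p = 1e-05, adjusted p = 9.0e-05) and against Il11 (r = -0.654, permutation p = 0.00059, adjusted p = 0.00303) and Lif (r = -0.717, permutation p = 8.0e-05, adjusted p = 0.000576). Without the 2 samples farthest from the median on the x axis, these were 0.668, -0.595 and -0.702, and with group means removed 0.800, -0.637 and -0.701. Among the 18 treated samples they were 0.776, -0.735 and -0.791, and among the 6 untreated ones 0.833, -0.557 and -0.680. Stat3 also ran with Il6st (r = 0.667, permutation p = 0.00036, adjusted p = 0.00216), with an r of 0.401 without C2 and B1, 0.838 in treated and 0.442 in untreated samples.

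In the 3 other passing pairs r was closer to 0 without the 2 samples farthest from the median on the x axis. Osm and Socs3 had an r of 0.605 (permutation p = 0.00181, adjusted p = 0.00814), which was 0.295 without B1 and G3, 0.450 in treated and 0.901 in untreated samples. That pair passed over the 20 samples (r = 0.618, adjusted permutation p = 0.0193) and with group means removed (r = 0.672, adjusted permutation p = 0.0146). Osm and Il6st had an r of -0.616 (permutation p = 0.00218, adjusted p = 0.00872), which was -0.497 without B1 and G3, -0.357 in treated and -0.968 in untreated samples. This pair did not pass over the 20 samples (r = -0.354, adjusted permutation p = 0.296) but passed with group means removed (r = -0.637, adjusted permutation p = 0.00444). Il6 and Osm had an r of 0.504 (permutation p = 0.0135, adjusted p = 0.0486), which was 0.0792 without B1 and H3, 0.444 in treated and 0.553 in untreated samples. It passed neither over the 20 samples (r = 0.356, adjusted permutation p = 0.296) nor with group means removed (adjusted permutation p = 0.113). Neither Il6 with Il11 (r = 0.219) nor Stat3 with its target Socs3 (r = -0.261) passed, with adjusted permutation p of 0.348 and 0.308.

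**Figure D3:**
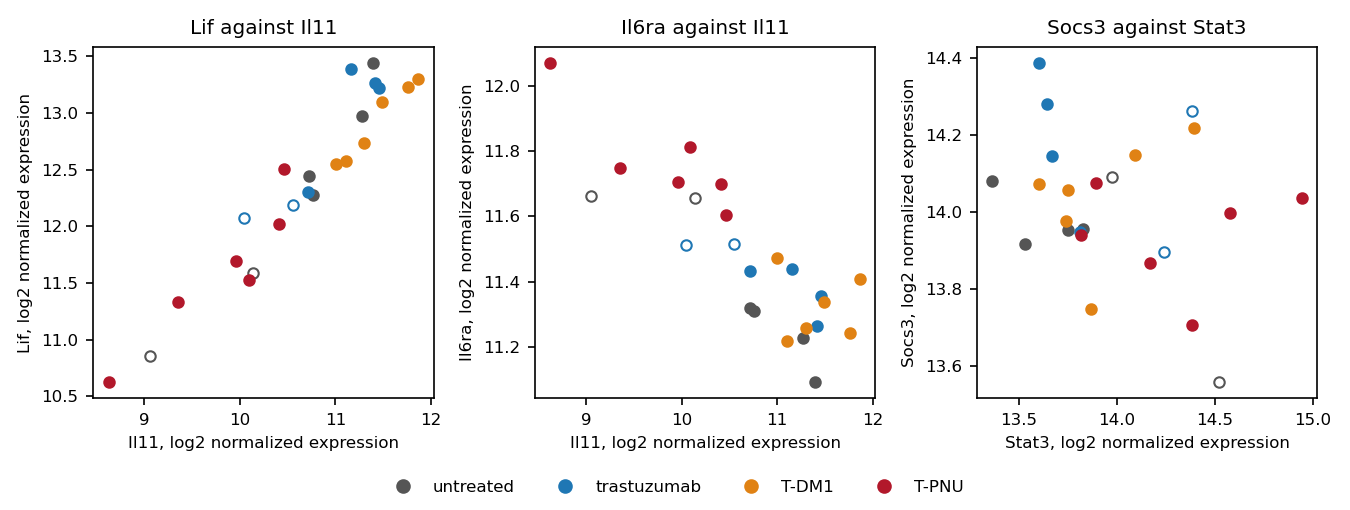
Log2 normalized expression of Lif and of Il6ra against Il11, and of Socs3 against Stat3, with 1 point per sample colored by group and open points for the 4 samples not in the published heatmaps. Lif rises along Il11 (r = 0.960) and Il6ra declines along it over all 24 samples (r = -0.853), though not among the T-DM1 points (r = -0.061), while Socs3 and Stat3 show no passing relation (r = -0.261).

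**Figure D4:**
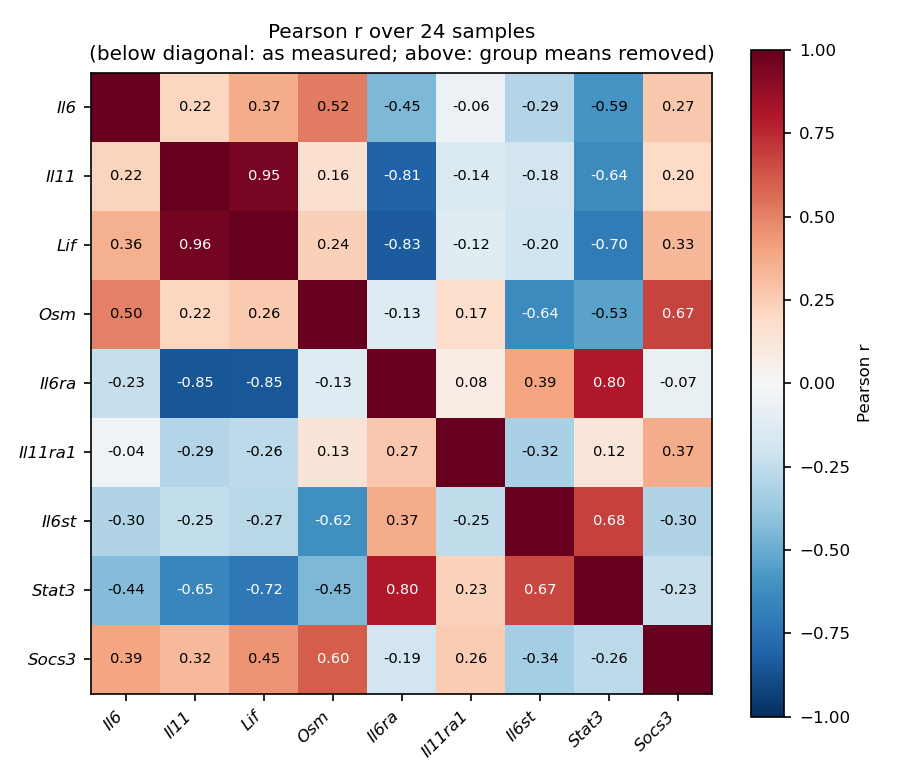
Pearson r of each pair of members over the 24 samples, as measured below the diagonal and with group means removed above it; color and printed values both give r. Il11 and Lif (0.960) form a positive pair, as do Il6ra and Stat3 (0.801), and r between the pairs is negative.

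The genes nearest to each member, by Pearson's r over 24 samples and given as a description, differed between the ligands. Nearest to Il11 were Fam83h (0.979), Pla2g12a (0.978) and Oaf (0.977), and among the 3 nearest to Lif were Igsf3 (0.969) and Pthlh (0.969). Il6 was closest to Serpinb2 (0.838), Tmem45a (0.803) and Spic (0.800), and Osm to Rabgef1 (0.880), the interferon gene Ifnb1 (0.857) and Sntb2 (0.856). Il6ra was closest to Elf4 (0.923), Dock8 (0.922), a regulator of lymphocyte migration, and Ppm1h (0.907). Stat3 was closest to Cblb (0.988), a ubiquitin ligase that restrains T cells, Elmsan1 (0.984) and Aff1 (0.981). Il6st was closest to Nkrf (0.953), Rnf19a (0.952) and Srpk1 (0.950). Socs3 was closest to Furin (0.820), Ticam1 (0.795) and Itpkc (0.787), and Il11ra1 to Hectd3 (0.794), Mlycd (0.792) and Alg1 (0.755). All 24 points share 1 normalization.

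The rest of the pathway was read from 4 lists. Of 12 measured other ligands and chains of the family, 2 were higher and 4 lower in T-PNU than in T-DM1 tumors (limma, adjusted p under 0.05), with a median of 0.021. The ligand gene Clcf1 was lower (-0.64, adjusted p = 0.00821), as were Ctf1 (-0.61, adjusted p = 0.0209), which encodes cardiotrophin 1, and Osmr (-0.77, adjusted p = 0.0242). Il12rb2, a chain of the IL-12 receptor, was higher (0.95, SE 0.26, adjusted p = 0.0105), as was Lifr (0.52, adjusted p = 0.0278). Clcf1 was in addition higher in T-DM1 than in untreated tumors (0.59, adjusted p = 0.0386), but not over the 20 samples (0.32, adjusted p = 0.199). Clcf1, Ctf1, Osmr and Lifr were chosen for naming after their values were seen.

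Of 15 kinases, STATs, regulators and receptor-shedding proteases, 5 were higher and 1 lower in T-PNU than in T-DM1 tumors, with a median of 0.26. Adam10, a protease that sheds IL-6Rα, was higher by 0.38 (SE 0.087, adjusted p = 0.00424) and was lower in T-DM1 than in untreated tumors (-0.43, adjusted p = 0.00789). Pias3, an inhibitor of STAT3, was lower by 0.21 on the log2 scale (difference -0.21, SE 0.077, adjusted p = 0.0434).

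Of 22 textbook STAT3-induced genes other than Socs3, 2 were higher and 4 lower in T-PNU than in T-DM1 tumors, with a median of -0.085. Myc, a growth regulator, was lower (-0.89, SE 0.16, adjusted p = 0.00134). Bcl3, a nuclear cofactor of NF-κB, was the 1 gene of the list called in T-PNU against untreated tumors (0.48, SE 0.10, adjusted p = 0.0483), and it was called in T-DM1 (0.54, adjusted p = 0.00559) and trastuzumab (0.51, adjusted p = 0.0300) against untreated tumors as well, although not in trastuzumab over the 20 samples (0.37, adjusted p = 0.623). All 3 treated groups thus lay above the untreated one for Bcl3, where the mouse numbers also differ. Of 9 measured inducers of Il6, 2 were higher in T-PNU than in T-DM1 tumors and none lower. Myd88, an adaptor of Toll-like receptors, was 1 of them (0.22, SE 0.076, adjusted p = 0.0361). Rela, a subunit of NF-κB, was not called there (-0.15, adjusted p = 0.155) but was higher in T-DM1 (0.43, adjusted p = 0.00546) and trastuzumab (0.42, adjusted p = 0.0277) than in untreated tumors. Over the 20 samples Rela was not called in trastuzumab against untreated tumors (0.36, adjusted p = 0.623). The 4 lists held 20 calls among 58 genes for T-PNU against T-DM1, beside the 29.8% of all genes. That number was 12 without T-PNU sample H1 and 13 without T-DM1 sample E3.

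Most fibroblast markers were lower in T-PNU than in T-DM1 tumors, as were Il11 and Lif. The summed level of 9 fibroblast and pericyte markers, on a log2 scale, ran from 14.7 to 16.0 in T-PNU and from 16.5 to 17.1 in T-DM1 samples, without overlap, and from 15.1 to 16.3 in untreated and 15.8 to 16.6 in trastuzumab samples. The collagen genes Col1a2, Col3a1 and Col1a1 had the highest levels of the 9 and so weigh most in this sum. Of these 9 genes, 6 were lower in T-PNU than in T-DM1 tumors and 0 higher, with a median of -1.21, where 12.4% of all genes were higher and 17.4% lower. They included Col3a1 (-1.38, SE 0.22, adjusted p = 0.000850), a fibrillar collagen, and Dcn (-0.65, SE 0.18, adjusted p = 0.0108), a matrix proteoglycan. Lum (0.015), Fap (0.31) and Thy1 (0.77, limma, adjusted p = 0.0810) were not lower. Thy1 was called higher over the 20 samples only (limma, adjusted p = 0.0200). Of 6 epithelial markers 2 were higher and 1 lower, with Krt8 at -0.96 (SE 0.22, adjusted p = 0.00434) and Krt14 at 1.02 (SE 0.23, adjusted p = 0.00417). Krt14 was also higher in T-PNU than in untreated tumors (1.15, adjusted p = 0.0470). The summed level of the 6 epithelial markers ran from 12.5 to 13.6 in T-PNU and from 13.5 to 14.2 in T-DM1 samples. Krt8 had the highest level of the 6 and so weighs most in this sum, whereas their median difference was 0.16. The fibroblast sum was also low in samples B1 (15.5), C1 (15.1) and E2 (15.8), as were Il11 and Lif. In B3, where Il11 and Lif were lower than in H2, it was 15.95, against 15.91 in H2. The epithelial sum was the lowest of its group in C1 (12.9) and E2 (13.1) but not in B1 (13.6). Both sums were lowest of T-PNU in C2 and H1, as were Il11 and Lif. The part of these cells in the differences of Il11 and Lif was not tested.

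Markers of leukocytes and endothelial cells were called higher in part, and none of them lower, in T-PNU than in T-DM1 tumors, beside the 12.4% of all genes called higher. Of 3 general leukocyte genes, 2 were higher in T-PNU than in T-DM1 tumors, Ptprc (0.76, SE 0.19, adjusted p = 0.00569) and Laptm5 (0.40, SE 0.10, adjusted p = 0.00779). Laptm5 was also higher than in untreated tumors (0.57, adjusted p = 0.0463). Of 8 macrophage genes 3 were higher, Lyz2 among them (0.73, adjusted p = 0.00647). The monocyte gene Ly6c2 differed by -0.014 there (adjusted p = 0.965) but was higher in T-PNU than in untreated tumors (1.04, adjusted p = 0.0463). Of 6 neutrophil genes 2 were higher in T-PNU than in T-DM1 tumors, Retnlg (0.84, adjusted p = 0.00637) and Ly6g (0.44, adjusted p = 0.0421). All 4 NK genes were higher, including Ncr1 (0.71, adjusted p = 0.0219) and Klrb1c (0.84, adjusted p = 0.0154). Of 5 endothelial genes 4 were, Vwf among them (0.85, adjusted p = 0.00320), with Kdr at 0.19 (adjusted p = 0.512). Of 6 T cell genes 0 passed over 24 samples, with a median of 0.94, Cd8a at 0.92 (adjusted p = 0.0585) and Cd8b1 at 0.96 (adjusted p = 0.103), and 3 passed over the 20. Of 5 B cell genes 0 passed, with Ms4a1 at 1.26 (adjusted p = 0.290) and Cd79b at 1.04 (adjusted p = 0.276). Of 6 dendritic cell genes 2 were higher, with Xcr1 at 1.19 (adjusted p = 0.00573) and Zbtb46 at -0.063 (adjusted p = 0.604), and of 5 mast cell and basophil genes 1 was, Ms4a2 (0.42, adjusted p = 0.0423), with Mcpt4 at 0.63 (adjusted p = 0.0753). The summed T cell level was 13.8 in B1, 13.4 in E2, 13.0 in E3 and 14.1 in C2, each the highest of its group. Each was also the sample with the highest Stat3 of its group. Il6ra was highest of its group in C2 as well, but in the other groups in C1, B3 and C3, with B1 close to C1 and E2 close to B3. The T cell sum was 11.9 in both G1 and A2, the lowest T-PNU samples for this sum, for Stat3 and for Il6ra. The dendritic cell sum, in which Ccr7 had the highest level, showed the same highest samples. They were B1 (14.7), E2 (14.2), E3 (13.7) and C2 (14.8). The dendritic cell sum was lowest of T-PNU in G1 (11.7) and A2 (12.5). The B cell sum was highest of its group in B1 and E2 but not in E3 or C2, and lowest of T-PNU in G1 and A2. G1 and A2 also had the highest Il11 and Lif of T-PNU. The part of these cells in the differences of Il6ra and Stat3 was not tested.

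**Figure D5:**
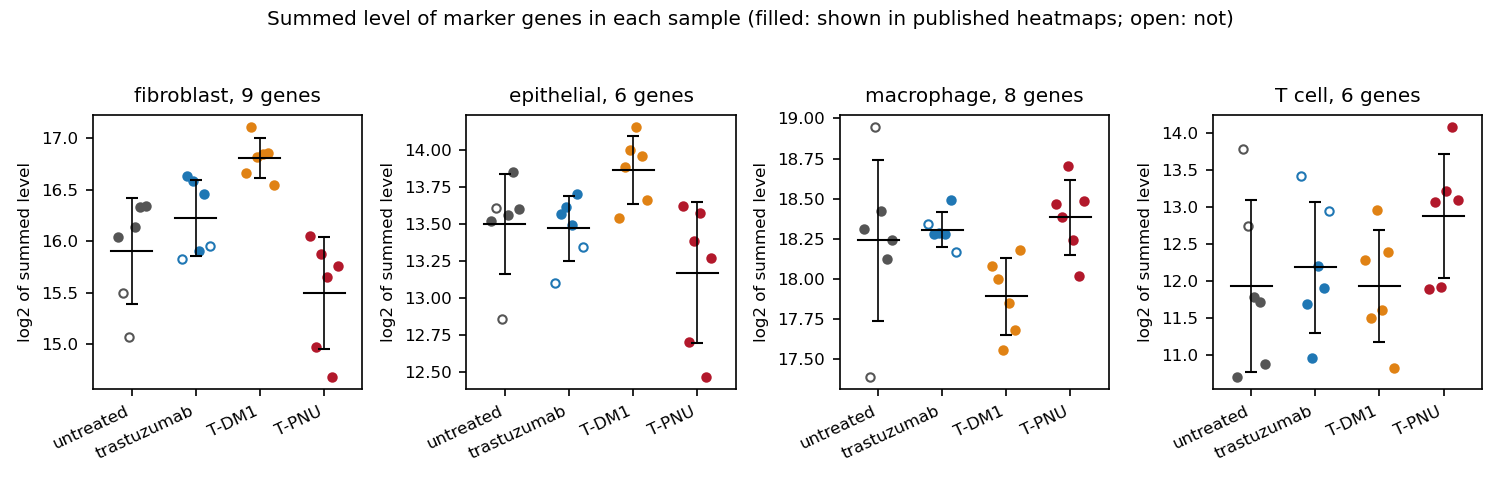
Log2 of the summed level of fibroblast, epithelial, macrophage and T cell markers (y axes) in each sample, by group (x axes), with the mean as a line and the SD as bars; open points are the 4 samples not in the published heatmaps. The fibroblast sum in T-PNU samples (14.7 to 16.0) lies below that in all T-DM1 samples (16.5 to 17.1). Krt8 has the highest level of the epithelial markers and weighs most in their sum. Col1a2 weighs most in the fibroblast sum and Lyz2 in the macrophage sum.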

How the data were processed

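RNA of CD45+ tumor cells was measured in 24 samples, 6 per group as the labels give them. Per the labels and the study's methods, the authors aligned single reads of 81 bases to the mouse genome (mm10) with STAR 2.4.2a, counted reads per gene by strand with featureCounts (Subread 1.5.0), removed genes with a mean under 5 counts and used DESeq2. The deposited values are log2 expression normalized for library size, with the transformation not named. No counts were recovered, so the depth of each library is unknown and no counting interval is given.

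Of 16996 gene identifiers, 16930 were found in GENCODE M21 (GRCm38), which gave positions and exon lengths. All 4 groups entered 1 linear model without covariates in limma 3.58.1 (R 4.3.3; lmFit, contrasts.fit, eBayes with a trend), p-values were adjusted over all genes by the Benjamini-Hochberg method, and a gene was called at an adjusted p under 0.05. Pairs of members were tested by permutation with 100000 resamples. Scripts were checked on simulated data. No 2 samples had identical values. Plots come from matplotlib 3.10.9 under Python 3.11.15.

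The members and gene lists were chosen with earlier results of these data known, and the AP-1 and NF-κB motifs and the fit of relations to the 18 treated samples only were added after seeing the data. Named were all 9 members, the 2 genes with the largest F and at most 4 genes called in T-PNU against untreated tumors in each list, and the 3 genes with the highest r to each member. Of the genes this rule takes, 2 are not reported here. Cntfr and Il17a of the lists had no row and were not analysed here. Alternatives were the 20 samples of the published heatmaps, quantile normalization, aligned sample medians, only genes above the median mean, only the 2 groups in each comparison, sample weights, no variance trend, unadjusted exact permutation tests of single members and each sample left out.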

Additional observations from a re-analysis of the deposited data

Results flagged for a closer look

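In 36 combinations of member and group, the highest or lowest of the 6 samples was set against the others by Dixon's test at its 95% critical value, which chance passes in about 1 of 20 groups, and 3 combinations passed, from 2 samples. Il6 was 10.97 in trastuzumab sample A3, the highest of its group, where the next sample had 10.32. Osm was 11.51 in untreated sample B1, the lowest of its group, where the next had 12.26. Socs3 was 13.56 in the same sample B1, again the lowest, where the next had 13.92. Untreated sample B1 is 1 of the 4 samples not in the published heatmaps. Neither Il6, Osm nor Socs3 was called in any comparison over all 24 samples or over the 20 samples of the heatmaps.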

How the results depend on the processing

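The 20 samples of the published heatmaps gave 4 called members against untreated and 4 against trastuzumab tumors, where all 24 gave 0 and 0. Sample weights gave 4 and 3, and a fit of genes with a mean above the median gave 1 against untreated tumors. Without 1 sample the count against untreated tumors was 0 to 2 (2 without C1, 1 each without G1, A2 or E2), and the 20 calls of the 4 pathway lists in T-PNU against T-DM1 became 12 to 22. The cause was not tested. Against T-DM1 the 3 calls stood under every alternative, with Stat3 added by sample weights. Over the 4 groups Lif lost its call with aligned medians (adjusted p = 0.0524). Of 1722 values of single members in the 6 comparisons of groups, 1634 kept direction and side of the 0.05 threshold. Another 29 came under it, 0 rose above it and 59 changed sign, none of them a called value. For the exact permutation tests the p set against the threshold was unadjusted, as for Socs3 against trastuzumab (exact permutation p = 0.0498). Such values among the 29 are not gained calls.

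With the 20 samples, T-PNU minus untreated changed sign for Osm (-0.018) and Socs3 (-0.039), T-DM1 minus untreated for Il6ra (0.085), T-PNU minus trastuzumab for Osm (-0.15), and T-DM1 minus trastuzumab for Lif (-0.13) and Osm (-0.027). With sample weights these were -0.042, -0.0062, 0.0046, -0.071 and, for Lif, -0.036. Quantile normalization gave -0.017 (Socs3, T-PNU minus untreated), -0.018 (Il11ra1, trastuzumab minus untreated), -0.020 (Osm, T-PNU minus trastuzumab) and -0.016 (Stat3, T-DM1 minus trastuzumab). Aligned medians gave -0.015 (the same Il11ra1), 0.020 (Il6, T-PNU minus T-DM1) and -0.0091 (the same Stat3).

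Without 1 sample, T-PNU minus untreated ran from -0.050 to 0.19 (Il6st), -0.086 to 0.15 (Osm) and -0.062 to 0.057 (Socs3). T-DM1 minus untreated ran from -0.063 to 0.016 (Il11ra1), -0.11 to 0.0015 (Il6ra), -0.13 to 0.087 (Il6st) and -0.016 to 0.22 (Stat3). Trastuzumab minus untreated ran from -0.031 to 0.057 (Il11ra1), -0.016 to 0.098 (Il6ra), -0.17 to 0.048 (Il6st), -0.089 to 0.15 (Osm) and -0.034 to 0.20 (Stat3). T-PNU minus T-DM1 ran from -0.16 to 0.15 (Il6) and -0.018 to 0.16 (Il6st), and T-PNU minus trastuzumab from -0.075 to 0.081 (Osm). T-DM1 minus trastuzumab ran from -0.082 to 0.0058 (Il11ra1), -0.013 to 0.071 (Il6st) and -0.081 to 0.11 (Stat3).

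Over all genes, T-PNU minus untreated gave 32 calls, 5279 with the 20 samples, 5827 with weights, 90 above the median, 0 with quantile normalization or only these 2 groups, and from 0, as without A1, to 2929, without C1, when 1 sample was left out. T-DM1 minus untreated gave 1065, then 341 with the 20 samples, 621 with 2 groups and 3297 with weights. Trastuzumab minus untreated gave 44, then 0 with the 20 samples or 2 groups, 27 above the median and 195 with weights. T-PNU minus T-DM1 gave 5073, and 3003 above the median. T-PNU minus trastuzumab gave 1, then 4765 with the 20 samples and 2256 with weights, and T-DM1 minus trastuzumab 110, then 4 above the median, 424 with 2 groups and 1232 with weights. No paired analysis was possible because the labels give no replicate number that groups share.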

Other observations

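Il11ra1 varied little over all samples, with an SD of 0.12 at percentile 9.98 of all genes, whereas the SD of Il11, its ligand, was 0.85 at percentile 98.3. Lif was at percentile 98.1 (SD 0.81), Il6 at 87.6 (SD 0.45), Stat3 at 82.9 (SD 0.39) and Socs3 at 37.8 (SD 0.19). Il6ra, which had the largest F of the 9 members, had an SD of 0.23 at percentile 53.8. These values rest on log2 values that look shrunken gene by gene.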
